A study of Mus musculus with 6 samples.

Results

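The 35 genes described here are those of NRF2 control and antioxidant defence: the NRF2 pathway's own regulators, the enzymes of glutathione and thioredoxin, the suppliers of NADPH, the superoxide dismutases and catalase, and 4 further genes of quinone reduction, export and related steps. They were chosen by name from a list of known functions, not by their values in these samples, although the list was drawn up with earlier results of these data known. All 35 had a column among the 17546 genes of the deposited count table, and all 35 passed the filter on low counts that left 13325 genes to test.

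The cells were group 2 innate lymphoid cells (ILC2s), lymphocytes of tissues that carry no antigen receptor and secrete IL-5 and IL-13, isolated from lungs of BALB/c mice given 3 intranasal doses of 1 µg of recombinant IL-33. All 6 cultures contained the survival cytokines IL-2 and IL-7, each at 10 ng/mL. Treated cells were exposed for 24 h to 10 µM Yoda1, a small molecule that opens the mechanosensitive calcium-permeable channel Piezo1, and the controls to its solvent DMSO, with 3 bulk RNA-seq libraries in each group (Yoda1 4 to 6 and DMSO 1 to 3). Whether the 3 libraries per group stem from different mice or cultures is not stated, and Yoda1 4 and 5 share a label number, as do DMSO 2 and 3. P-values therefore measure only the spread between these libraries, which may be technical. The deposited table itself names the control PBS where the sample labels name DMSO; the sample labels were followed.

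NRF2, encoded by Nfe2l2, is a transcription factor that is made continuously and destroyed continuously, because KEAP1 hands it to a ubiquitin ligase. Oxidants and electrophiles modify cysteines of KEAP1, NRF2 then accumulates, pairs with a small MAF protein and binds antioxidant response elements, from which BACH1 otherwise keeps it away. Its known targets make and recycle glutathione, reduce thioredoxin and peroxiredoxins, and supply the NADPH that all of these reactions spend. Because NRF2 is controlled mainly as a protein, the transcripts of its targets, rather than that of Nfe2l2, are the usual readout of its activity.

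Total counts ran from 15355158 to 17322050 in the Yoda1 libraries and from 14214048 to 31627519 in the DMSO libraries. Summed over 13 markers, the ILC2 level was 11800 to 12900 CPM in Yoda1 libraries and 11200 to 11800 CPM in DMSO libraries, of which the cytokine gene Il5 alone gave 6935 to 8258 CPM with Yoda1 and 5343 to 5936 CPM with DMSO. Within that list Icos (434 to 509 CPM with Yoda1, 851 to 875 CPM with DMSO), Il2ra, Il7r, Id2, Areg and Thy1 were lower in all Yoda1 libraries than in any DMSO library, and Thy1 stayed below 3 CPM in all 6. Il5, Rora (353 to 450 CPM with Yoda1, 287 to 335 CPM with DMSO) and Klrg1 were higher in all Yoda1 libraries. Gata3, Il1rl1, Il13 and Ptprc overlapped between the groups. Of the lists for other cell types, those for epithelium, macrophages, T cells, natural killer cells with ILC1s, and red blood cells had sums that did not overlap between the groups, and the other 4 overlapped. The epithelial list (12 of 15 genes had a column) summed to 55.9 to 76.1 CPM in Yoda1 libraries and 92.4 to 436 CPM in DMSO libraries. Most of the Yoda1 sums came from Epcam, at 48.8 to 70.1 CPM with Yoda1 and 64.6 to 67.8 CPM with DMSO, which overlapped. The club cell gene Scgb1a1 of this list had 0, 0 and 0.0585 CPM in the Yoda1 libraries, and 0, 301.7 and 293.3 CPM in the DMSO libraries. The macrophage list (8 of 15 genes) summed to 33.9 to 38.4 CPM with Yoda1 and 12.2 to 23.3 CPM with DMSO, and its defining gene Csf1r reached at most 0.234 CPM with Yoda1 and 0.333 CPM with DMSO. The T cell list (4 of 7 genes) summed to 19.3 to 29.8 CPM with Yoda1 and 34.2 to 36.6 CPM with DMSO, nearly all of it from Cd3g. In any library Cd3e reached at most 2.67 CPM, Cd3d 1.55 CPM and Trac 0.643 CPM. Cd4, Cd8a and Cd8b1 had no column. The list for natural killer cells and ILC1s (5 of 8 genes) summed to 44.3 to 62.0 CPM with Yoda1 and 155 to 211 CPM with DMSO, nearly all of it from the granzyme genes Gzma and Gzmb, while the defining genes Eomes and Tbx21 stayed under 1 CPM in every library. The part of these cells in the values below was not tested. In bulk RNA, fewer cells of a type and less RNA per cell cannot be told apart.

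Levels below are CPM, each gene's count relative to its library's total, scaled by edgeR's TMM factors. Changes are log2 ratios of Yoda1 over DMSO, given with a standard error (SE). Adjusted p stands for the quasi-likelihood test of edgeR and Benjamini-Hochberg adjustment over all 13325 genes, with a threshold of 0.05. Among the 35 members 1 rose, the quinone reductase gene Nqo1, and 34 did not pass. That is 1 of 35 in either direction, against 1.49% of all genes tested, of which 0.570% (76) were called higher and 0.923% (123) lower. With upper quartile scaling the split over all genes was 57 higher and 174 lower. No member was called lower in edgeR, where Me1 was lower at an unadjusted p under 0.05. DESeq2 called 4 members higher and 1 lower, of 428 and 498 over all genes, many more than edgeR called. Limma voom called 1 higher and 0 lower, of 121 and 179 over all genes. Without adjustment, at p under 0.05, edgeR had 7 of 35 members higher, or 20%, against 7.39% of all genes, and 1 of 35 lower, against 7.11%.

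The libraries of the groups did not overlap for 9 members. Yoda1 was higher for 7 of them, 20% of the members against 10.6% of all genes, and lower for 2, 5.71% against 12% of all genes. The log2 change was positive for 26 of 35 members, 74.3% against 51.0% of all genes, with a median of 0.13 against 0.01. With upper quartile scaling the positive members numbered 20 and the medians were 0.08 for the members and -0.04 for all genes, so the count of positive changes moved with the scaling.

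**Figure D1:**
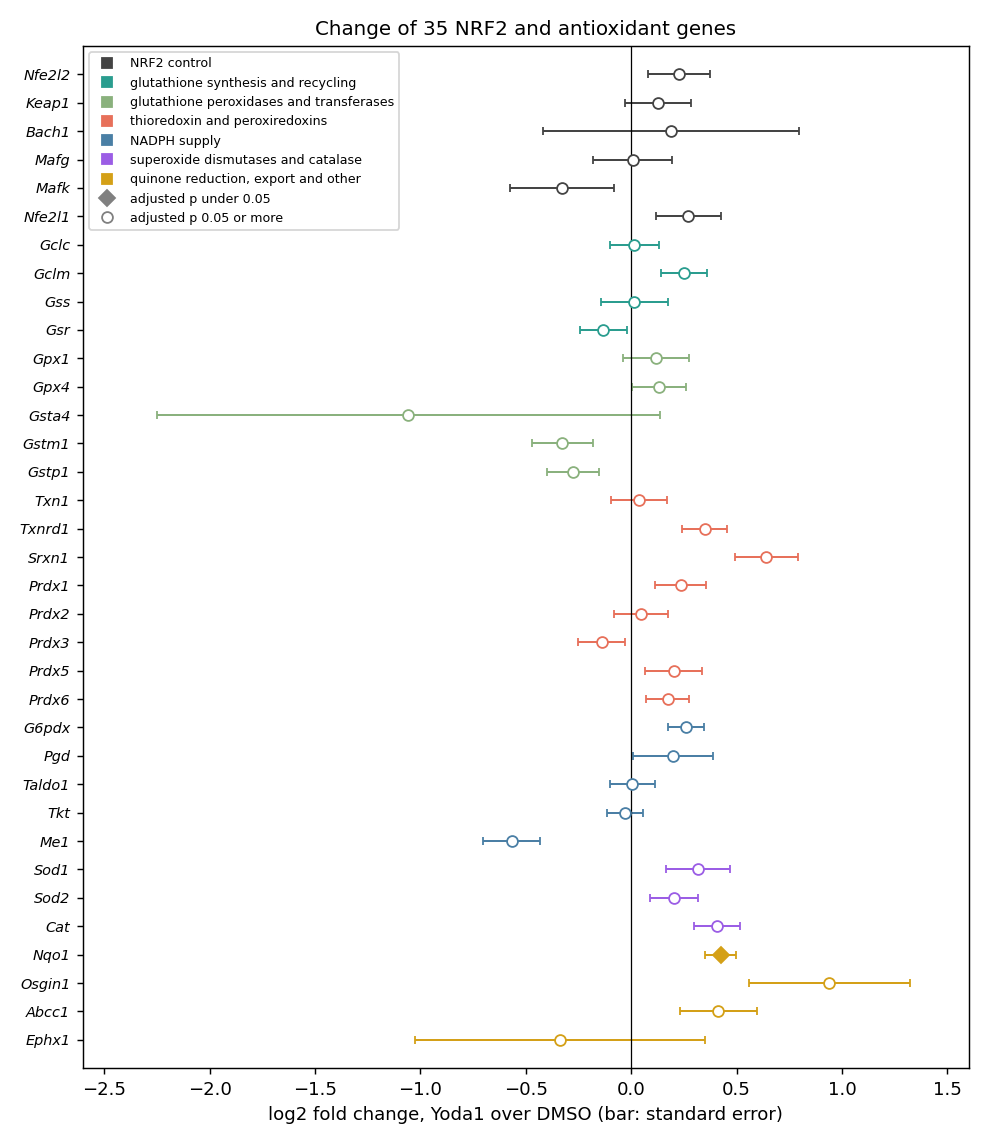
Log2 fold change of Yoda1 over DMSO (x axis) for each of the 35 members, in blocks by role from top to bottom, with bars of 1 standard error (n = 3 libraries per group); filled diamonds passed the adjusted threshold. Nqo1, at 0.42, was the member that passed; Osgin1 reached 0.94 and Srxn1 0.64 with wider bars, and Me1 lay at -0.57.

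Nqo1 encodes a flavoenzyme that reduces quinones by transferring a pair of electrons at once, and it is among the most used markers of NRF2 activity. It was at 939.7, 974 and 992 CPM in Yoda1 4, 5 and 6, and at 689, 746 and 730.0 CPM in DMSO 1, 2 and 3. The Yoda1 libraries lay close together and all above the DMSO libraries. The means were 968 ± 26.5 CPM with Yoda1 and 721.5 ± 29.5 CPM with DMSO (SD, n = 3 each), a 1.34-fold difference. Nqo1 rose by 0.42 on the log2 scale (SE 0.07, edgeR quasi-likelihood test, adjusted p = 0.0320). In p, the gene stood 125th of 13325. It lies on chromosome 8 at 107388225 to 107403206 of GRCm38 (also called mm10).

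The size of the Nqo1 difference hardly moved when libraries were left out, but its call did. The log2 change stayed between 0.39 and 0.45 with each library left out in turn. The adjusted p was 0.135, 0.149 and 0.176 without DMSO 1, DMSO 2 and DMSO 3 and 0.132 without Yoda1 5, and the call held without Yoda1 4 or Yoda1 6 (edgeR quasi-likelihood test). Against DMSO 1 alone, the DMSO library with no Scgb1a1 count, the log2 change was 0.48 (SE 0.14). That value assumes that the lone DMSO library varies as the Yoda1 libraries do. Another gene of the epithelial list, Sftpc, was at 15.3 CPM in DMSO 1 and at most 0.569 CPM in every other library.

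The other 3 genes of this block differed more between libraries. Osgin1, an oxidative stress-induced growth inhibitor, was at 36.2, 37.0 and 24.6 CPM in Yoda1 4, 5 and 6 and at 11.3, 28.1 and 11.2 CPM in DMSO 1, 2 and 3. DMSO 2 overlapped the Yoda1 libraries, and the log2 change of 0.94 (SE 0.38) did not pass (edgeR quasi-likelihood test, adjusted p = 0.305); without DMSO 2 it was 1.54. Abcc1, an exporter of glutathione conjugates, averaged 92.2 ± 20.9 CPM with Yoda1 and 69.3 ± 7.2 CPM with DMSO (SD, n = 3 each) and its groups overlapped. Ephx1, the microsomal epoxide hydrolase, was barely detected, at 1.91 to 4.39 CPM with Yoda1 and 0.990 to 6.25 CPM with DMSO.

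**Figure D2:**
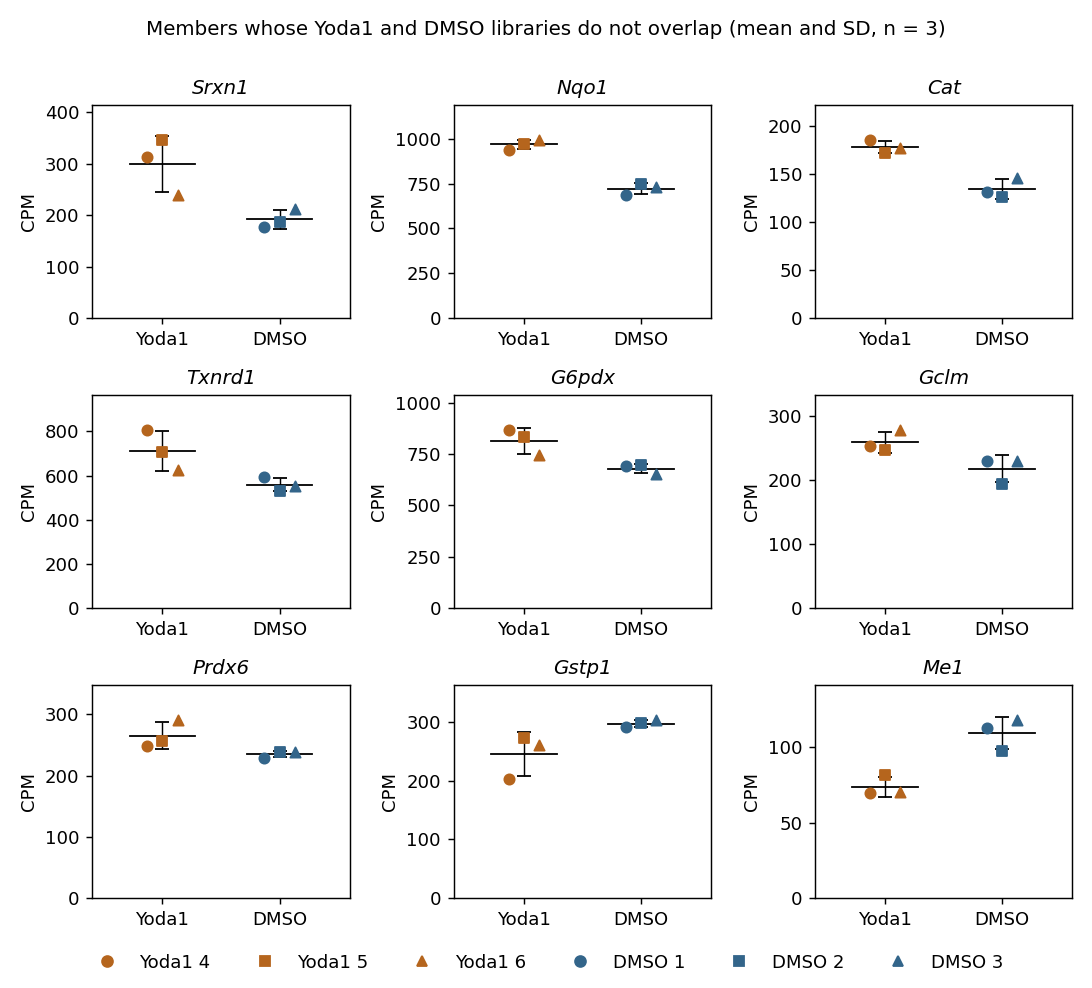
CPM (y axis, from 0) of the 9 members whose Yoda1 and DMSO libraries did not overlap, one panel per gene, with each library as a point and the mean and SD as lines (n = 3 per group). Yoda1 lies left and is higher in 7 panels; Gstp1 and Me1 are lower with Yoda1.

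Sequence before the transcription start was examined because the members are grouped by a factor with a known recognition sequence. RefSeq windows on GRCm38.p6, running from 250 bases before to 50 bases after the start, matched 30 of the 35 members, with 42 windows in all. The core of the antioxidant response element, TGACNNNGC, was searched on both strands. It occurred in 11 of the 42 member windows, 26.2%, and in 12.4% of all 32851 windows. The AP-1 sequence TGANTCA, which overlaps the element when its 3 free bases are TCA, occurred in 5 member windows, 11.9%, and in 7.81% of all windows. A match is a string of letters and not a shown binding site. The matches of 6 members taken up below are written 5′ to 3′ in the direction of the gene, with the core in capitals and 10 bases on either side. The offset counts from the transcription start to the first capital. Capitals that begin with GC and end with GTCA are the core read on the other strand.
Gclm, chr3:122245413-122245441, plus strand, offset -134: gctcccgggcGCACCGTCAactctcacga
Txnrd1, chr10:82859104-82859132, plus strand, offset -92: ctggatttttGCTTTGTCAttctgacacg
G6pdx, chrX:74428919-74428947, minus strand, offset -57: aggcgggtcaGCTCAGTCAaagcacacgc
Prdx1, chr4:116685456-116685484, plus strand, offset -133: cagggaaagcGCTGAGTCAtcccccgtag
Me1, chr9:86695902-86695930, minus strand, offset -6: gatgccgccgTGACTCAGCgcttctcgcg
Srxn1, chr2:152105542-152105570, plus strand, offset 29: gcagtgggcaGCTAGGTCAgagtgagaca
The matches of Prdx1 and Me1 hold the same 9 letters on opposite strands and both contain TGANTCA. The bases that follow the RefSeq start of Me1 were not found near the start of a GENCODE transcript, unlike those of the other 5. Whether the starts themselves coincide was not checked. Srxn1 held 2 further TGANTCA strings before its start. Only 250 bases before and 50 after the start were searched, so a missing string does not show that a gene lacks an element. The 250 bases before the start of Nqo1, the member that passed the test, held neither string on the letters searched and are printed whole, 53.2% G and C, from chr8:107403206-107403455, minus strand.
Nqo1: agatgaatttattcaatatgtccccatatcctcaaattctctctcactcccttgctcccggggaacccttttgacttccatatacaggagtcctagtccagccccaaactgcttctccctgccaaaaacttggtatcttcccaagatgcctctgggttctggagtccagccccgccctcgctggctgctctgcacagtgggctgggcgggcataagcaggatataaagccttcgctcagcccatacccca

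The control genes of the pathway showed no called change. None of the 6 passed in edgeR, none had an unadjusted p under 0.05, and DESeq2 and limma voom called none. Nfe2l2 was at 79.8, 89.3 and 75.1 CPM in Yoda1 4, 5 and 6 and at 60.8, 71.6 and 76.3 CPM in DMSO 1, 2 and 3. The groups overlapped through Yoda1 6 and DMSO 3, and the log2 change of 0.23 had a 95% interval of -0.11 to 0.56, so a difference of that size could not be told from none at this spread. Keap1, the adaptor that marks NRF2 for destruction, was at 141, 115 and 123 CPM in Yoda1 4, 5 and 6 and at 127, 93.6 and 126 CPM in DMSO 1, 2 and 3. Those values interleaved, with a 95% interval of the log2 change of -0.22 to 0.48.

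Bach1, the repressor that competes with NRF2, was the least expressed of the 6 and the most scattered. It was at 8.71, 13.7 and 6.86 CPM in Yoda1 4, 5 and 6 and at 8.94, 2.15 and 14.8 CPM in DMSO 1, 2 and 3. DMSO 2, the deepest library, held the lowest value, and the 95% interval of its log2 change was -1.2 to 1.57. Its sign changed under 3 of 17 alternatives. The small MAF genes, whose products pair with NRF2 or BACH1, did not pass either. Mafg averaged 76.5 ± 18.0 CPM with Yoda1 and 76.2 ± 7.8 CPM with DMSO, and Mafk 57.9 ± 20.8 CPM with Yoda1 and 72.7 ± 7.5 CPM with DMSO (SD, n = 3 each). Nfe2l1, which encodes NRF1, the related factor that governs proteasome genes, averaged 87.8 ± 7.1 CPM with Yoda1 and 72.8 ± 11.2 CPM with DMSO.

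The thioredoxin block held 3 genes whose groups did not overlap. Srxn1 encodes sulfiredoxin, which repairs overoxidised peroxiredoxins. It was at 313, 346 and 239 CPM in Yoda1 4, 5 and 6 and at 177, 187 and 212 CPM in DMSO 1, 2 and 3. Every Yoda1 library was above every DMSO library, with Yoda1 6 the nearest to them. The 1.56-fold difference of the means corresponded to 0.64 on the log2 scale (SE 0.15), which did not pass (edgeR quasi-likelihood test, adjusted p = 0.0782). It passed without Yoda1 6 (log2 change 0.78, edgeR adjusted p = 0.0205), with a stricter filter on low counts (edgeR adjusted p = 0.0261) and in DESeq2 (adjusted p = 0.00152). It also passed in voom with a random effect linking libraries that share a label number (adjusted p = 0.0499), a setting chosen after seeing the data. The SE there was 0.14, against 0.15 in voom without the random effect, so the link did not widen it. With the libraries that share a label number summed instead, Srxn1 did not pass (log2 change 0.61, edgeR adjusted p = 0.347), nor in the other 13 alternatives.

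Txnrd1, the cytosolic selenoenzyme that reduces thioredoxin with NADPH, was at 805, 706 and 623 CPM in Yoda1 4, 5 and 6 and at 592, 532 and 553 CPM in DMSO 1, 2 and 3. The lowest Yoda1 library was Yoda1 6, as for Srxn1, and it was still above DMSO 1. Its log2 change came to 0.35 (SE 0.11, edgeR quasi-likelihood test, adjusted p = 0.170; DESeq2 adjusted p = 0.0355). Its substrate Txn1, thioredoxin itself, averaged 598 ± 112.5 CPM with Yoda1 and 583 ± 38 CPM with DMSO (SD, n = 3 each). The reductase and its substrate thus differed in whether their libraries separated, but a difference between them was not tested.

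Of the 5 peroxiredoxins, the thiol peroxidases that thioredoxin or glutathione recharges, Prdx6 alone had groups that did not overlap. It was at 248, 257 and 290.3 CPM in Yoda1 4, 5 and 6 and at 229, 238 and 238 CPM in DMSO 1, 2 and 3. The margin between Yoda1 4 and DMSO 2 was small, and the log2 change of 0.17 (SE 0.10) did not pass (edgeR quasi-likelihood test, adjusted p = 0.480). Prdx1, the abundant cytosolic form, averaged 1236 ± 224 CPM with Yoda1 and 1050.3 ± 36.1 CPM with DMSO. Prdx2 averaged 209.5 ± 33.8 CPM with Yoda1 and 203 ± 1.77 CPM with DMSO, and Prdx5, found in mitochondria and peroxisomes, 187 ± 27.6 CPM with Yoda1 and 162.5 ± 14.1 CPM with DMSO. The mitochondrial Prdx3 averaged 162 ± 9 CPM with Yoda1 and 179 ± 14 CPM with DMSO (SD, n = 3 each). None of these passed in edgeR, and in DESeq2 the block's calls were Srxn1 and Txnrd1.

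No gene of glutathione synthesis and recycling passed. Gclc and Gclm encode the catalytic and modifier subunits of glutamate-cysteine ligase, the rate-limiting step. Gclm was at 253, 246 and 278 CPM in Yoda1 4, 5 and 6 and at 229.7, 194 and 229.7 CPM in DMSO 1, 2 and 3. Its groups did not overlap, and the log2 change of 0.25 (SE 0.11) did not pass (edgeR quasi-likelihood test, adjusted p = 0.342). Gclc was at 511 to 693 CPM with Yoda1 and 596 to 633 CPM with DMSO, so the DMSO range lay inside the Yoda1 range. The 95% interval of its log2 change was -0.25 to 0.28. Gss, glutathione synthetase, averaged 55.2 ± 4.5 CPM with Yoda1 and 54.6 ± 6.4 CPM with DMSO, and Gsr, glutathione reductase, 266 ± 9 CPM with Yoda1 and 291 ± 34 CPM with DMSO (SD, n = 3 each). None of the 4 was called in edgeR, DESeq2 or limma voom, and 1, Gclm, was higher at an unadjusted p under 0.05.

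Glutathione peroxidases and transferases had mostly negative changes, 3 of 5, under each of the 4 scalings tried. Other blocks were mostly negative under some scalings only. NADPH supply had 2 of 5 positive with upper quartile factors and with library totals alone. Glutathione synthesis and recycling had 1 of 4 positive with upper quartile factors. None of the 5 peroxidase and transferase genes passed the adjusted threshold in edgeR, DESeq2 or limma voom. At an unadjusted p under 0.05, edgeR had none of the 5, whereas DESeq2 (0.0369 and 0.0430) and limma voom (0.0367 and 0.0389) had Gstm1 and Gstp1 as lower. Gstp1, a transferase that joins glutathione to electrophiles, was at 203, 272 and 261 CPM in Yoda1 4, 5 and 6 and at 291, 297 and 302 CPM in DMSO 1, 2 and 3. The DMSO libraries lay within a narrow band above all Yoda1 libraries. Its log2 change came to -0.27 (SE 0.12, edgeR quasi-likelihood test, adjusted p = 0.352). Its value carries some uncertainty from the related genes Gstp2 and Gstp3. With Yoda1 these 2 genes were at 0.409 to 0.808 and 7.33 to 8.73 CPM of all counts. With DMSO they were at 0.667 to 2.28 and 11.1 to 17.0 CPM.

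Gstm1, another transferase with close paralogs, was at 221, 263 and 177 CPM in Yoda1 4, 5 and 6 and at 286, 261 and 281 CPM in DMSO 1, 2 and 3. Yoda1 5 and DMSO 2 overlapped by a small margin, and the log2 change came to -0.33 (SE 0.14, edgeR quasi-likelihood test, adjusted p = 0.346). Gpx1, the cytosolic selenoenzyme that reduces hydrogen peroxide, averaged 408 ± 95 CPM with Yoda1 and 376 ± 23 CPM with DMSO, and Gpx4, which protects membrane lipids and restrains ferroptosis, 455 ± 74 CPM with Yoda1 and 415 ± 32 CPM with DMSO (SD, n = 3 each). Gsta4 was close to absent, with 0, 21 and 27 counts in Yoda1 4, 5 and 6 and 10, 104 and 29 counts in DMSO 1, 2 and 3. Its highest count fell in DMSO 2, one of the libraries with Scgb1a1, and the part of epithelial RNA in it was not tested.

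The NADPH suppliers did not move as a block. G6pdx, glucose-6-phosphate dehydrogenase, opens the pentose phosphate pathway. It was at 866, 833 and 745 CPM in Yoda1 4, 5 and 6 and at 690.4, 696 and 653 CPM in DMSO 1, 2 and 3. Its groups did not overlap, with Yoda1 6 again the nearest to DMSO, and the log2 change of 0.26 (SE 0.08) did not pass (edgeR quasi-likelihood test, adjusted p = 0.194). Pgd, the next oxidative enzyme, was at 256, 189 and 143 CPM in Yoda1 4, 5 and 6 and at 163 to 176 CPM in the DMSO libraries. Those DMSO values lay inside the Yoda1 range. The non-oxidative enzymes Taldo1 and Tkt averaged 456 ± 42 and 457 ± 26 CPM with Yoda1, against 454 ± 39 and 466 ± 15 CPM with DMSO (SD, n = 3 each).

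Me1, the cytosolic malic enzyme, lay on the other side. It was at 69.8, 81.4 and 70.2 CPM in Yoda1 4, 5 and 6 and at 113, 97.3 and 118 CPM in DMSO 1, 2 and 3. All Yoda1 libraries were below all DMSO libraries. The means were 73.8 ± 6.6 CPM with Yoda1 and 109 ± 11 CPM with DMSO (SD, n = 3 each), a ratio of 0.675. On the log2 scale this was -0.57 (SE 0.14) and did not pass (edgeR quasi-likelihood test, adjusted p = 0.0868). DESeq2 (adjusted p = 0.00381) and edgeR with a stricter filter on low counts (adjusted p = 0.0331) called it lower. Its log2 change was -0.52 to -0.64 with each library left out. It was the lowest log2 change among the 32 members with a mean of at least 10 CPM. The gene lies on chromosome 9 at 86581371 to 86695953 of GRCm38.

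All 3 genes that dispose of superoxide and hydrogen peroxide had positive changes under each of the 4 scalings, and none passed in edgeR. Cat, catalase, the peroxisomal enzyme that splits hydrogen peroxide, was at 185, 172 and 177 CPM in Yoda1 4, 5 and 6 and at 131, 126 and 146 CPM in DMSO 1, 2 and 3. Its groups did not overlap, and the spread within each was small. Its log2 change came to 0.41 (SE 0.11, edgeR quasi-likelihood test, adjusted p = 0.121; DESeq2 adjusted p = 0.00644). Sod1, the copper-zinc dismutase of the cytosol, was at 177, 243 and 262 CPM in Yoda1 4, 5 and 6 and at 191, 186 and 170.1 CPM in DMSO 1, 2 and 3, so that Yoda1 4 overlapped the DMSO libraries. Sod2, the manganese enzyme of mitochondria, averaged 139 ± 9 CPM with Yoda1 and 121 ± 7 CPM with DMSO (SD, n = 3 each). At an unadjusted p under 0.05 Cat was higher, and limma voom called none of the 3. The macrophage list also had the higher sum with Yoda1, and its part in the Cat values was not tested.

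Levels between genes are comparable only per length, here as CPM per kilobase of the union of annotated exons. On that scale Nqo1 ranked 1st of the 35 with Yoda1, at 624 CPM per kb, and 2nd with DMSO, at 465, where thioredoxin (Txn1) was 1st at 554. Prdx1 followed in both groups, at 406 CPM per kb with Yoda1 and 345 with DMSO. Gpx1, Gpx4, G6pdx and Taldo1 filled places 4 to 7 in both groups, at 210.0 to 283 CPM per kb with Yoda1 and 209 to 261 with DMSO. With Yoda1, Nqo1 and Txn1 differed by less than the SD of Txn1, and Gpx1, G6pdx and Gpx4 by less than the SD of Gpx1, so these places are not fixed. The union of exons can also exceed the length of the transcript that the cells make, which lowers a gene's value. It was 1553 bp for Nqo1 and 3043 bp for Prdx1. The places therefore depend on the annotation, and which transcripts were expressed was not examined. The regulators sat low: Keap1 at 26.9 CPM per kb with Yoda1 and 24.65 with DMSO, Nfe2l2 at 21.45 with Yoda1 and 18.3 with DMSO, and Bach1 at 1.58 with Yoda1 and 1.40 with DMSO.

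The members did not deviate in one direction inside the groups. Among the 32 members with a mean of at least 10 CPM, the median coefficient of variation was 13.8% over the Yoda1 libraries and 7.6% over the DMSO libraries, and 21 of 32 varied more with Yoda1. The 8428 genes at that level showed the same order, with medians of 16.6% with Yoda1 and 11.6% with DMSO. Yoda1 6 was the highest Yoda1 library for 15 of the 32 members and the lowest for 12. It had the highest Gpx1, Gpx4, Txn1, Prdx1, Prdx2, Prdx5 and Sod1 and the lowest Srxn1, Txnrd1, Osgin1, Pgd, G6pdx, Mafk and Gstm1.

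**Figure D3:**
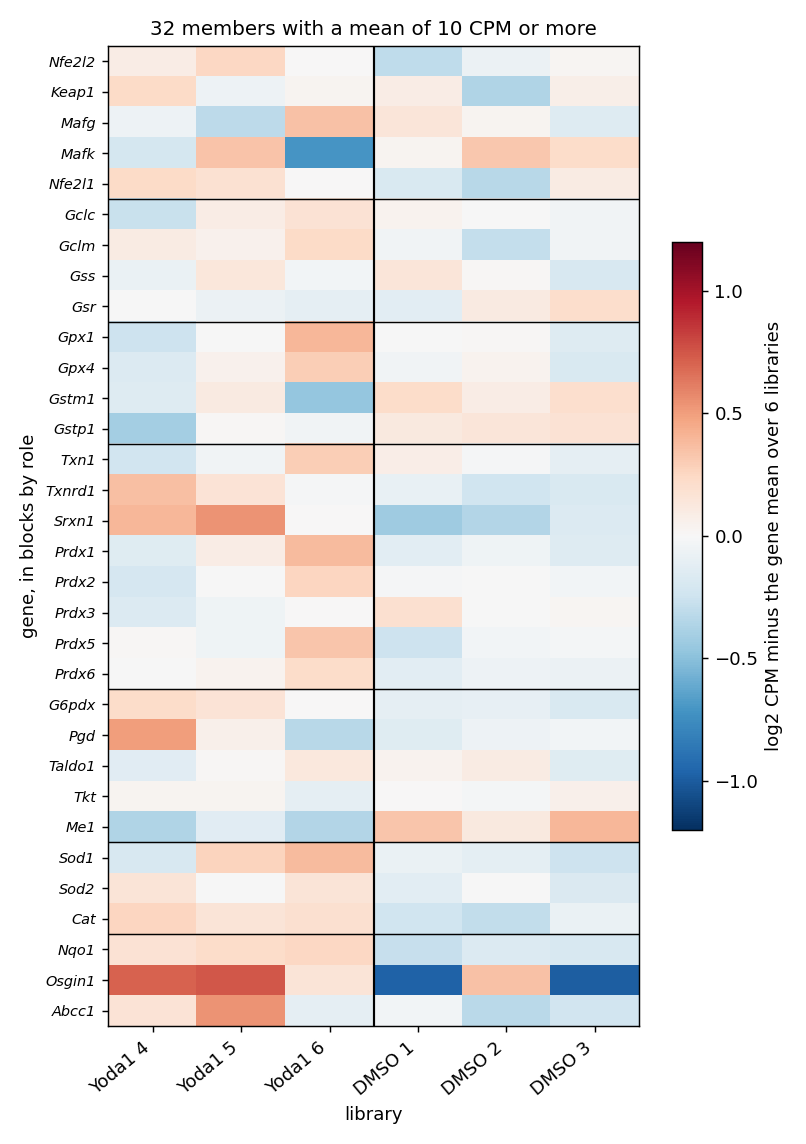
Log2 CPM minus the gene's mean over the 6 libraries (colour) for the 32 members with a mean of at least 10 CPM (rows, in blocks by role), with Yoda1 libraries left of the line and DMSO libraries right of it. Nqo1 and Cat are uniformly red with Yoda1 and blue with DMSO, whereas Gpx1, Txn1, Prdx1 and Prdx5 are reddest in Yoda1 6.

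The difference between Yoda1 6 and the other Yoda1 libraries went with annotated exon length. Of the genes averaging 10 CPM or more, the 8307 with an annotated exon length were split by exon length into 4 classes of nearly equal size. The median log2 ratio of Yoda1 6 to the mean of Yoda1 4 and 5 was 0.20 in the shortest class (up to 2793 bp), -0.02 and -0.11 in the middle classes, and -0.23 in the longest (from 6823 bp). Among the members in those classes 8 of 12, 4 of 9, 3 of 7 and 1 of 4 had a positive ratio. The Spearman correlation of length with this ratio was -0.34 across 32 members and -0.39 across all 8307 genes, which share the same libraries and are not independent. Between DMSO 2 and the mean of DMSO 1 and 3 the class medians stayed between -0.02 and 0.01. The change of Yoda1 over DMSO had a median of 0.04 or 0.05 in each class and a Spearman correlation with length of 0.01 across all genes. Among the members the class medians of that change were 0.08, 0.23, 0.17 and 0.28 from short to long, with a correlation of 0.20 across the 32.

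**Figure D4:**
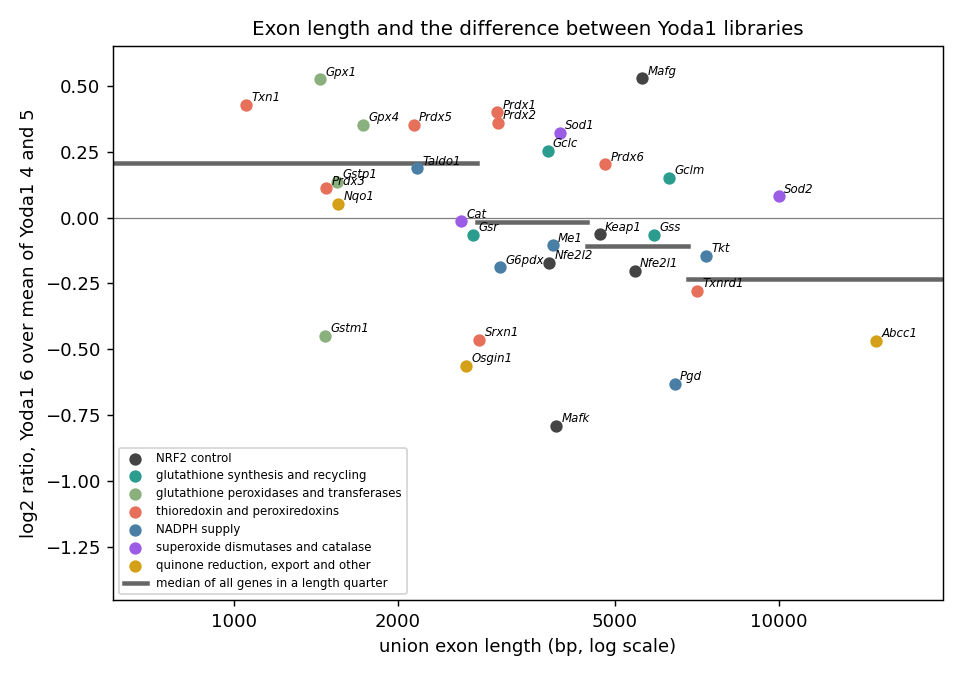
Log2 ratio of Yoda1 6 to the mean of Yoda1 4 and 5 (y axis) against union exon length in bp (x axis, log scale) for the 32 members with a mean of at least 10 CPM, coloured by role; thick lines are the medians of all 8307 genes in each of the 4 length classes, cut at the axis limits. Short genes such as Gpx1 and Txn1 lie above 0, whereas Nqo1 and Cat lie close to 0.

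A wider list of 97 genes of the same pathways was set beside the members. Of these, 89 had a column and 84 were tested, of which 4 rose, 1 fell and 79 did not pass, where all genes tested had 0.570% higher and 0.923% lower. Over the list DESeq2 called 8 higher and 2 lower, of 428 and 498 over all genes, and limma voom 5 and 1, of 121 and 179. The median log2 change was 0.03, near the 0.01 of all genes.

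Of the 5, Sqstm1 had the smallest p. It encodes p62, an autophagy receptor that binds KEAP1 and so frees NRF2. It was at 1829, 1879 and 1816 CPM in Yoda1 4, 5 and 6 and at 798, 799 and 744 CPM in DMSO 1, 2 and 3. No library came near the other group. Sqstm1 rose by 1.24 on the log2 scale (SE 0.07, edgeR quasi-likelihood test, adjusted p = 0.000183) and stayed called with each library left out. Blvrb, biliverdin reductase B of heme breakdown, was at 52.6, 73.3 and 74.6 CPM in Yoda1 4, 5 and 6 and at 17.0, 28.8 and 24.6 CPM in DMSO 1, 2 and 3. It rose 2.85-fold (log2 change 1.51, SE 0.24, edgeR quasi-likelihood test, adjusted p = 0.0242), and the call was lost without DMSO 1, 2 or 3 or Yoda1 5 or 6 (edgeR adjusted p up to 0.144). The other genes of that list did not pass in edgeR, including Hmox1, heme oxygenase 1, at 322, 336 and 264 CPM in Yoda1 4, 5 and 6 and at 209, 259.9 and 266 CPM in DMSO 1, 2 and 3, whose groups overlapped. Ftl1, the ferritin light chain, averaged 24959 ± 3114 CPM with Yoda1 and 19139 ± 198 CPM with DMSO (SD, n = 3 each), narrowly missed in edgeR (quasi-likelihood test, adjusted p = 0.0528) and was called by DESeq2 and limma voom.

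Esd encodes esterase D, the hydrolase that finishes the glutathione-dependent removal of formaldehyde. It was at 853, 936 and 1247 CPM in Yoda1 4, 5 and 6 and at 547, 549 and 548 CPM in DMSO 1, 2 and 3. The DMSO libraries were nearly equal, and all Yoda1 libraries were higher, Yoda1 6 most of all. Esd rose by 0.88 on the log2 scale (SE 0.13, edgeR quasi-likelihood test, adjusted p = 0.0184), and the call was lost without DMSO 1, 2 or 3 or Yoda1 5 (edgeR adjusted p up to 0.139).

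Slc3a2, the heavy chain that carries the cystine importer and other amino acid transporters to the membrane, was at 666, 679 and 648 CPM in Yoda1 4, 5 and 6 and at 1032, 1003 and 1012 CPM in DMSO 1, 2 and 3. It fell to 0.654 of the DMSO level (log2 change -0.61, SE 0.07, edgeR quasi-likelihood test, adjusted p = 0.00707), a call lost without DMSO 1, 2 or 3 (edgeR adjusted p up to 0.0723). Its cystine-importing partner Slc7a11 was at 8.32 to 13.8 CPM with Yoda1 and 10.6 to 19.0 CPM with DMSO, and its groups overlapped.

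Nfe2, the p45 relative of NRF2 known from megakaryocytes and red cell precursors, had 33, 60 and 27 counts in Yoda1 4, 5 and 6 and 0 counts in DMSO 1, 2 and 3. Nfe2 passed the filter on low counts only through its Yoda1 counts. Its pooled Yoda1 level was 51.3-fold that of an allowance of 3 counts over the 3 DMSO libraries together. The allowance covers counting error in DMSO only, not the spread between libraries, so the ratio is no lower bound. Nfe2 was called higher (edgeR quasi-likelihood test, adjusted p = 0.0284). That call was lost with any 1 library left out (edgeR adjusted p 0.0598 to 0.149). The red blood cell list, of which 2 of 6 genes had a column, summed to 10.0 to 19.1 CPM with Yoda1 and 6.33 to 8.72 CPM with DMSO, and its part in the Nfe2 result was not tested.

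A further 3 lists gave no call in edgeR. At an unadjusted p under 0.05 all genes tested had 14.5% (7.39% higher, 7.11% lower). Without adjustment, at 0.05, 3 of 14 further thioredoxin genes passed (1 higher, 2 lower), and DESeq2 had Sesn1, a sestrin, among its higher genes. Likewise 1 of 11 further NADPH genes was lower, and DESeq2 had Idh2, the mitochondrial isocitrate dehydrogenase, as lower. Of 13 genes of carbonyl reduction and conjugation 1 was higher without adjustment, with no DESeq2 call. Limma voom called none in these 3 lists.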

How the data were processed

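The authors deposited 1 table of expected counts (estimated, so often not whole numbers) for 17546 genes in 6 libraries. Partek software made it, going by its name, on build mm10, per the submitters' processing notes. Aligner, counting method, strand setting and annotation were not given in the sources used here. Between 57.1% and 66.5% of a library's values were whole within 0.001, and every gene's total was at least 10. Reads shared by near-identical genes may therefore have been split.

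Counts were rounded. Main test: edgeR 4.0.16 in R 4.3.3, TMM scaling, filterByExpr with its minimum count of 10 and total of 15, glmQLFit and glmQLFTest with treatment as the sole term, Benjamini-Hochberg adjustment over 13325 genes. SE is the log2 change over the square root of F. The calls and log2 changes of the main test, not the SE, were tried on simulated counts drawn independently for each library. Alternatives used DESeq2 1.42.0 and limma 3.58.1. A count of 0 allows up to 0.0949 to 0.211 CPM (3 counts, counting error only). No pair of libraries of a group agreed within sampling noise (chi-square over degrees of freedom at least 18.11).

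The members and lists were chosen with earlier results of these data known, and no list was tested as a set. Libraries were given in full for members past the adjusted or an unadjusted p of 0.05, for members whose groups did not overlap, and for Nfe2l2, Keap1, Bach1 and Nqo1; Gstm1, Sod1, Pgd and Gsta4 were added after their values were seen, as were Hmox1 and Slc7a11. Positions and exon lengths came from GENCODE M21 on GRCm38, marker sums are CPM of all counts, and promoter windows came from RefSeq on GRCm38.p6. Part of the wider list is not reported here.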

Additional observations from a re-analysis of the deposited data

How the results depend on the processing

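The log2 change kept its sign in all 18 alternatives for Nqo1, Srxn1, Txnrd1, Cat, G6pdx, Gclm, Prdx6, Gstp1 and Me1, and Nqo1 was called in 9 of them. Nqo1 was not called with upper quartile factors (0.37, edgeR adjusted p = 0.0502) or with libraries of a shared label number summed (0.44, edgeR adjusted p = 0.266). Nor was it called without DMSO 1, 2 or 3 or Yoda1 5. GlmTreat kept the log2 change of the main fit and asked for more than 1.5-fold, which the 1.34-fold Nqo1 difference did not reach. The label suffix as a term set DMSO 1 and 2 (suffix 0) apart, so the Yoda1 change rested on DMSO 3 alone (0.41). Against DMSO 1 alone it was 0.48. Nqo1 was not called in these settings either.

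Members called higher and lower numbered 1 and 0. The counts were 4 and 1 in DESeq2, 2 and 1 with at least 10 CPM in 3 libraries, 2 and 0 in voom with a random effect for libraries that share a label number (chosen after seeing the data), and 0 and 0 with upper quartile factors, glmTreat, the label suffix, summed libraries or DMSO 1 alone. Without 1 library they ran from 0 to 2 higher and 0 lower. Of the wider pathway list 4 were called higher and 1 lower. DESeq2 gave 8 and 2, the 10 CPM filter 4 and 2, glmTreat and the label suffix 1 and 0, summed libraries and DMSO 1 alone 0 and 0, and leaving out 1 library 1 to 4 higher and 0 to 2 lower. Over all genes 76 were called higher and 123 lower. These counts were 428 and 498 in DESeq2, 158 and 290 with the 10 CPM filter, 121 and 179 in voom, 151 and 213 in voom with the random effect, 57 and 174 with upper quartile factors, 50 and 83 with no filter, 6 and 10 with glmTreat, 2 and 1 with the label suffix, 1 and 0 with summed libraries, 0 and 0 with DMSO 1 alone, and 4 to 74 and 5 to 146 without 1 library. The cause of these differences was not tested, except that summed libraries and single left-out libraries hold fewer samples. With the label suffix as a term the change rested on DMSO 3 alone, and in the setting with DMSO 1 alone on that library. GlmTreat asked for a change beyond 1.5-fold, so its counts answer another question. The median log2 change of the members, 0.131, was 0.0787 with upper quartile factors and 0.0747 to 0.176 without 1 library. No paired analysis was possible because the groups share no replicate number. Depth limits what a count of 0 shows, as for Nfe2 with DMSO and Gsta4 in Yoda1 4: it allows 0.0949 to 0.211 CPM, depending on the library.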
